A study of Homo sapiens with 24 samples.

Results

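CADM1, ADPRHL1 and MAPK4 are 3 of the 62757 genes counted in this study of human cardiac differentiation. They were chosen from measured values: in these same libraries, targeting of ZNF711 was followed by opposite differences from the control in the 2 culture conditions. All 3 were found by their Ensembl identifiers, and all 3 passed the filter on low counts that left 17724 genes for testing. The ZNF711 values below therefore describe how the genes were chosen and carry no test.

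The cells were HES3, a human embryonic stem cell line, with GFP at NKX2-5 and mCherry at NR2F2, and every group carried both reporters. CRISPR-Cas9 was used to knock out LHX2, ZNF503 or ZNF711, and cells targeted at TRAC, the constant region of the T cell receptor alpha chain, served as the control. Cells were grown as embryoid bodies under a cardiac protocol that adjusts Wnt signalling, for at most 14 days. The AM libraries are read here as the atrial condition, which received retinoic acid at day 4, and the VM libraries as the ventricular condition, which did not. Each of the 8 groups, 4 targets in each condition, has 3 libraries. The labels do not say whether a target is 1 clone or a pool, whether libraries of a group came from separate cultures, or what the replicate number stands for, so the spread between libraries may be technical.

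CADM1 encodes an immunoglobulin-family adhesion protein that binds itself and related proteins on neighbouring cells, and anchors to the cytoskeleton through band 4.1 proteins and to membrane-associated guanylate kinases such as MPP3 and CASK. ADPRHL1, also called ARH2, is a heart-enriched relative of the ADP-ribosylhydrolases, enzymes that remove ADP-ribose from proteins, and is held to lack their usual catalytic activity. MAPK4, also called ERK4, is an atypical MAP kinase that is phosphorylated by group I p21-activated kinases and works with the kinase MAPKAPK5. ZNF711 encodes a zinc finger transcription factor related to ZFX, and retinoic acid is the signal commonly used to direct cardiac mesoderm towards atrial cells.

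Identifiers with their versions are those of the deposited counts; positions on GRCh38 are from GENCODE 29, a release with earlier versions of the same 3 identifiers. CADM1 (ENSG00000182985.18) lies on chromosome 11 from 115169218 to 115504957 on the minus strand, with 22 transcripts. ADPRHL1 (ENSG00000153531.15) lies on chromosome 13 from 113399610 to 113453524 on the minus strand, with 4 transcripts. MAPK4 (ENSG00000141639.12) lies on chromosome 18 from 50560078 to 50731824 on the plus strand, with 6 transcripts. The counts are per gene, so use of one start over another was not measured. Of 4 annotated genes that overlap CADM1 or MAPK4, 3 had no count, and AC012433.1, a pseudogene inside MAPK4, had 1 count over the 24 libraries.

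Sequence upstream of annotated starts is shown for ADPRHL1 and MAPK4, to show which bases lie in front of them. Both come from RefSeq on GRCh38.p14. The first ADPRHL1 stretch, chr13:113453525-113453738 on the minus strand, ends just before the GENCODE 29 start of the full-length gene at 113453524. RefSeq starts the gene at 113453488, so the bases between these positions are not in the stretch. The second, chr13:113414394-113414643 on the same strand, lies before an internal start. In the second, capitals mark AGGCCT, the core of an element reported for ZFX and ZNF711. The MAPK4 bases lie before the GENCODE 29 start at 50560078. RefSeq begins the MAPK4 gene at 50559612, so these bases lie inside the gene as RefSeq places it.
ADPRHL1 before the full-length start: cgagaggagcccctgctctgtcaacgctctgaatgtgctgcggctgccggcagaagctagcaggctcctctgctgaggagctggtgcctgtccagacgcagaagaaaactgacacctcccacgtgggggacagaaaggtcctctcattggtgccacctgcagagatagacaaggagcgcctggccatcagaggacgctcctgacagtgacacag
ADPRHL1 before the internal start: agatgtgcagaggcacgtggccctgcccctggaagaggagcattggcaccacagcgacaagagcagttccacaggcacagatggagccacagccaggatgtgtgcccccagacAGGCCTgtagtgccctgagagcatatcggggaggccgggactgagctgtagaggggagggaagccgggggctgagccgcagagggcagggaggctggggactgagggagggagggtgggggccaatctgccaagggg
MAPK4, 30 bases at chr18:50559997-50560026 on the plus strand, with 1 GC box GGGCGG in capitals and the next directly after it in lower case: tgggggcccagtGGGCGGgggcggggcccg

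AGGCCT, which is its own reverse complement, began 137 bases before the internal ADPRHL1 start (position -137). It was not in the windows of 300 bases (250 before the start and 50 after it) at the other ADPRHL1 starts or at MAPK4. It was in 10.9% of 35116 such windows, so 1 match among these is a description and shows no site. The GC box GGGCGG matched 5 times in the MAPK4 window, as written at positions -78, -72, -55 and -11 and in reverse complement at -141. It also matched at position 9 of the window at the internal ADPRHL1 start, and was in 45.0% of windows on either strand. TATAAA began 29 bases before the full-length RefSeq start of ADPRHL1 (position -29), between the RefSeq and GENCODE starts and so outside the printed stretch, and was in 11.5% of windows. The nuclear receptor core motif AGGTCA was in 13.8% of windows and in none of those searched for ADPRHL1 and MAPK4. No window was available for CADM1, so it was not searched for any of these motifs.

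Library totals ran from 2899786 to 7438010 counts, with a median of 5113566.5. Levels are given as CPM, each count divided by its library's total on a per-million scale, with totals scaled by TMM. The labelled cell type, cardiomyocyte, was visible in every library: TNNT2 (cardiac troponin T) ran from 116.8 to 651.3 CPM, MYH6 (alpha myosin heavy chain) from 3282.3 to 14028.0 CPM and NKX2-5 from 79.3 to 259.2 CPM. In a principal component analysis of 1000 variable genes, AM and VM separated on the first component (63.9% of the variance). On the second (14.6%), replicate 3 of each VM target and all 3 VM ZNF711 libraries lay apart from the other VM libraries. Summed CPM of 10 endoderm genes was 23195.5 in VM TRAC replicate 3 and 2767.6 and 3105.0 in the other VM TRAC libraries, against 8784.6 to 25211.2 in VM ZNF711. Values without replicate 3 of every group are therefore given beside the ZNF711 results of the 3 genes and of the gene lists.

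RNA of the targeted genes does not check the labels. ZNF711 was at 55.3, 60.0 and 47.2 CPM in AM TRAC and at 55.6, 40.9 and 31.1 CPM in AM ZNF711. In VM it was at 47.8, 37.4 and 34.4 CPM in TRAC and at 32.8, 33.7 and 25.8 CPM in ZNF711. The AM groups overlapped. In VM every ZNF711 library lay below every TRAC library, where 10.1% of all genes did not overlap. Libraries of VM ZNF503, at 28.5, 36 and 34 CPM, overlapped VM ZNF711, and those of VM LHX2, at 39.1, 40.4 and 43.1 CPM, lay above it. Its RNA stayed measurable in every library labelled ZNF711, and RNA after an indel need not be lost. ZNF503 was higher in the libraries labelled ZNF503 than in TRAC, at 254.0, 365.3 and 268.4 CPM against 103.0, 110.4 and 122.3 CPM in AM, and at 45.1, 42.5 and 19.1 CPM against 8.79, 14.6 and 16.2 CPM in VM, with no overlap. LHX2 was at 2.79 CPM or less in the libraries labelled LHX2 and at 4.01 CPM or less in TRAC. For these 2 targets too, the RNA level does not show that the gene was lost.

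CADM1 was lower after ZNF711 targeting in AM and higher in VM. In AM TRAC its level was 134, 157 and 124 CPM in replicates 1, 2 and 3. In AM ZNF711 it was 75.6, 104 and 106 CPM, and every one of these libraries lay below every AM TRAC library. In VM TRAC it was 67.0, 70.9 and 78.5 CPM, the lowest group mean of the gene in the study. In VM ZNF711 it was 109, 121 and 110 CPM, all above every VM TRAC library. The fitted log2 fold change was -0.55 (SE 0.17) in AM, 1.46-fold lower, and 0.65 (SE 0.17) in VM, 1.57-fold higher. The difference between the conditions, VM minus AM, was 1.20 (SE 0.25) on the log2 scale. Without replicate 3 these values were -0.71, 0.75 and 1.46.

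ADPRHL1 went the other way. Its level was 117, 130 and 131 CPM in AM TRAC and 178, 220 and 168 CPM in AM ZNF711, so each AM ZNF711 library was above each AM TRAC library. In VM it was 124, 192 and 141 CPM in TRAC and 87.9, 121 and 120 CPM in ZNF711. The VM groups did not overlap, although TRAC replicate 1 lay only just above the highest ZNF711 library. The fitted log2 fold change was 0.58 (SE 0.20) in AM, 1.50-fold higher, and -0.47 (SE 0.20) in VM, 1.39-fold lower. Without VM TRAC replicate 2, the library at 192 CPM, the VM value was -0.27. VM minus AM was -1.05 (SE 0.28). Without replicate 3 the AM, VM and difference values were 0.68, -0.59 and -1.27.

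MAPK4 was the scarcest of the 3, with a median of 4.40 CPM per kilobase of exon over all libraries, against 9.51 for CADM1 and 12.4 for ADPRHL1. It was at 16.0, 16.2 and 13.6 CPM in AM TRAC and at 26.5, 31.9 and 24.6 CPM in AM ZNF711, with no overlap. In counts this was 75 to 104 in AM TRAC and 95 to 159 in AM ZNF711. In VM it was at 44.8, 91.2 and 45.3 CPM in TRAC and at 35.0, 52.1 and 38.3 CPM in ZNF711, and here the groups overlapped. The fitted log2 fold change was 0.86 (SE 0.26) in AM, 1.81-fold higher, and -0.53 (SE 0.24) in VM, 1.44-fold lower. The VM value rests largely on TRAC replicate 2, the library at 91.2 CPM: without it the log2 fold change was -0.10. VM minus AM was -1.38 (SE 0.35), and -0.96 without that library. Without replicate 3 the AM, VM and difference values were 0.85, -0.63 and -1.48.

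Libraries whose CPM did not overlap between ZNF711 and TRAC were found in AM for all 3 genes and in VM for CADM1 and ADPRHL1. Over all genes tested, 11.7% did not overlap in AM and 10.1% in VM. These genes were picked for this pattern, so nothing is read from the comparison. By adjusted p below 0.05, 0 of 17724 genes (0.0%) passed for ZNF711 in AM, 3 (0.0169%) in VM and 1 (0.00564%) for the difference between conditions. At an unadjusted p below 0.05 there were 617 genes (3.48%) in AM, 1666 (9.4%) in VM and 1135 (6.4%) for the difference, and DESeq2 called 0, 76 and 10. With the replicate number as a block, 7, 402 and 5 genes passed. Without replicate 3 of every group 41, 898 and 295 genes passed, and leaving out VM TRAC replicate 3 alone gave 645 in VM and 32 for the difference.

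**Figure D1:**
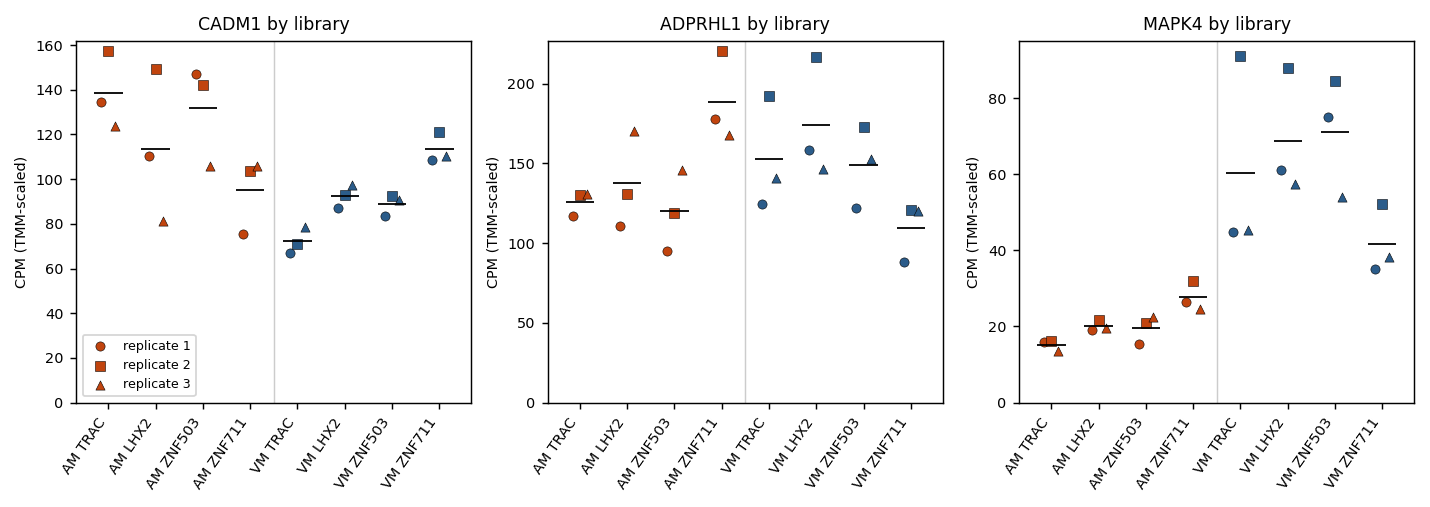
CPM of CADM1, ADPRHL1 and MAPK4 in each of the 24 libraries, by condition and target, with a point for each library (the shape gives its replicate number) and a line at each group mean. CADM1 sits between 67.0 and 78.5 CPM in VM TRAC and between 109 and 121 CPM in VM ZNF711, while the MAPK4 groups in VM overlap because VM TRAC spans 44.8 to 91.2 CPM.

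Ordered by group mean, CADM1 was highest in AM TRAC (138 ± 17.2 CPM, SD, n = 3) and lowest in VM TRAC (72.1 ± 5.84 CPM). Most neighbours in this order overlapped; the exceptions were VM ZNF711 (113 ± 6.84 CPM) above AM ZNF711 (95.0 ± 16.9 CPM), and VM ZNF503 (88.9 ± 4.63 CPM) above VM TRAC. ADPRHL1 was highest in AM ZNF711 (189 ± 27.8 CPM) and lowest in VM ZNF711 (110 ± 18.8 CPM), and each group overlapped its neighbour. MAPK4 was highest in VM ZNF503 (71.2 ± 15.7 CPM) and lowest in AM TRAC (15.3 ± 1.44 CPM). AM ZNF711 (27.7 ± 3.77 CPM) stood alone in the MAPK4 order, below every VM library and above every other AM library.

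The other targets give a reference for how these genes vary. LHX2 encodes a LIM homeodomain factor and ZNF503 a zinc finger factor. Their libraries were not used to choose the 3 genes, but they are compared with the TRAC libraries that were. The values of the 3 genes against TRAC, and their p-values, are therefore not independent of the choice. In edgeR's quasi-likelihood test, 0 of the 3 genes passed in any of 6 comparisons (LHX2 or ZNF503 against TRAC in AM, in VM, and the difference between the conditions), and 0.0% of all genes did in each. At an unadjusted p below 0.05, all genes gave 1372 for LHX2 in AM, 463 in VM and 660 for the difference, and 310, 274 and 346 for ZNF503. DESeq2 called 22 genes for LHX2 in AM and 1 in VM, 1 for ZNF503 in AM and 1 in VM, and 0 for either difference; none of the 3 genes was among them. With the replicate block, 201 genes passed for LHX2 in AM, 1 in VM and 1 for ZNF503 in AM, again none of the 3.

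CADM1 after LHX2 targeting was at 110, 149 and 81.1 CPM in AM and at 87.3, 92.7 and 97.3 CPM in VM. In VM all 3 libraries were above VM TRAC (log2 fold change 0.36, SE 0.17, unadjusted p = 0.0524, adjusted p = 1 by edgeR), where 5.13% of all genes did not overlap. In AM the groups overlapped (-0.29, SE 0.17, adjusted p = 0.716), and the value was -0.54 with AM LHX2 replicate 2 left out and -0.10 with replicate 3 of that group left out. VM minus AM was 0.64 (SE 0.25), with an unadjusted p of 0.0148 and an adjusted p of 1 by edgeR, and 0.90 and 0.45 without those libraries. After ZNF503 targeting CADM1 was at 147, 142 and 106 CPM in AM, overlapping TRAC, and at 83.7, 92.4 and 90.8 CPM in VM, again all above VM TRAC (0.30, SE 0.17, adjusted p = 1), where 4.32% of all genes did not overlap. CADM1 was thus above the VM TRAC libraries in all 9 VM libraries of the other targets, which share those 3 control libraries. Since CADM1 was chosen partly on those control libraries, this pattern is not independent of the choice and is a description.

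ADPRHL1 was at 111, 131 and 170 CPM in AM LHX2 and at 158, 217 and 146 CPM in VM LHX2. With ZNF503 it was at 95.0, 119 and 146 CPM in AM and at 122, 173 and 153 CPM in VM. All 4 groups overlapped their TRAC group, and the log2 fold changes ran from -0.07 (SE 0.20) for ZNF503 in AM to 0.19 (SE 0.20) for LHX2 in VM.

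MAPK4 was at 19.2, 21.6 and 19.5 CPM in AM LHX2, each above AM TRAC (log2 fold change 0.40, SE 0.26, adjusted p = 0.745 by edgeR), where 19.0% of all genes did not overlap. In AM ZNF503 it was at 15.4, 20.8 and 22.6 CPM, overlapping TRAC, where 8.55% of all genes did not overlap (0.36, SE 0.26, adjusted p = 1). In VM it was at 61.1, 87.9 and 57.4 CPM with LHX2 and at 75.0, 84.6 and 53.9 CPM with ZNF503, again overlapping TRAC (0.19 and 0.24, SE 0.24 for each).

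**Figure D2:**
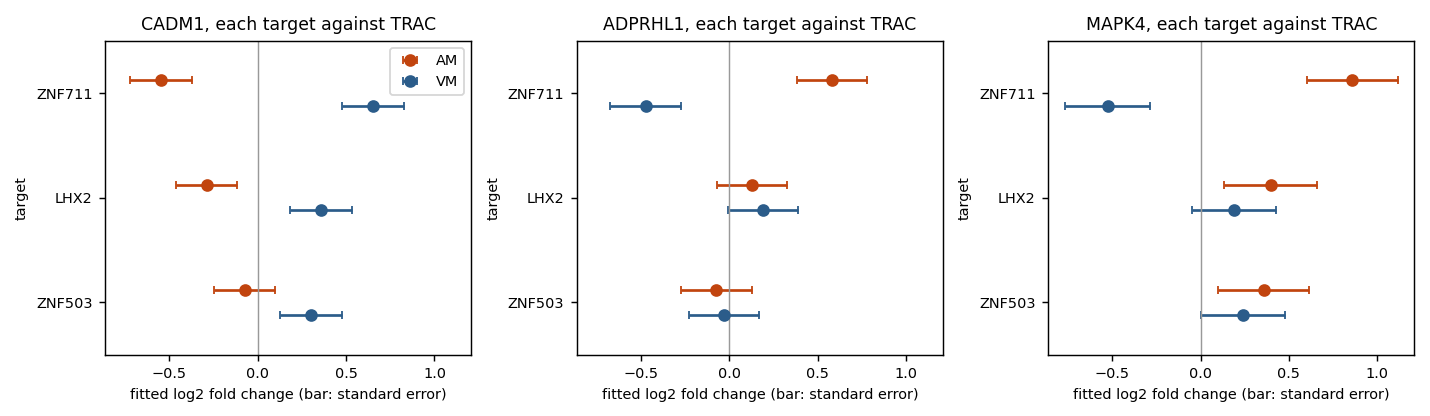
Fitted log2 fold change of each target against TRAC (horizontal axis, bars are the standard error) for the 3 genes, in AM and VM. For ZNF711 the AM and VM points lie on opposite sides of 0, at -0.55 and 0.65 for CADM1; these points chose the genes and carry no test.

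The condition itself was compared within LHX2 and within ZNF503, whose libraries took no part in the choice of genes. MAPK4 was lower in AM in both. In LHX2 its 19.2 to 21.6 CPM in AM stood against 57.4 to 87.9 CPM in VM (log2 fold change -1.77, SE 0.26, 3.41-fold lower, adjusted p = 3.81e-05 by edgeR). In ZNF503 its 15.4 to 22.6 CPM stood against 53.9 to 84.6 CPM (-1.86, SE 0.25, 3.64-fold lower, adjusted p = 1.38e-05). All 3 AM libraries were below all 3 VM libraries in each, where 23.9% of all genes in LHX2 and 23.5% in ZNF503 did not overlap. Both calls stood in every leave-one-out fit, with adjusted p up to 0.0114 without replicate 1 in ZNF503.

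CADM1 was 1.48-fold higher in AM than in VM in ZNF503 (log2 fold change 0.57, SE 0.17, adjusted p = 0.0397 by edgeR), with 106 to 147 CPM against 83.7 to 92.4 CPM and no overlap. This call was lost (adjusted p = 0.0549) when only those 2 groups were fitted. It was also lost without AM ZNF503 replicate 1 or 2 (adjusted p = 0.166 and 0.149), without VM ZNF503 replicate 1, 2 or 3 (0.127, 0.0798 and 0.083), and without replicate 1 or 2 of every group (0.37 and 0.25). In LHX2 the CADM1 groups overlapped (0.29, SE 0.17, adjusted p = 0.363), with 0.05 when AM LHX2 replicate 2 was left out (adjusted p = 0.934) and 0.49 when replicate 3 of that group was (0.0835). ADPRHL1 did not pass in either (-0.33, SE 0.20, adjusted p = 0.367 in LHX2; -0.32, SE 0.20, adjusted p = 0.423 in ZNF503). So 1 of 3 genes passed in LHX2, where 8.56% of all genes did, and 2 of 3 in ZNF503, where 8.86% did. The replicate block kept these calls, and 2781 and 2642 genes passed with it in place of 1517 and 1571.

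In TRAC and ZNF711, which chose the genes, the same contrast is given as a description. In TRAC, AM against VM was 0.94 (SE 0.17) for CADM1, -0.27 (SE 0.20) for ADPRHL1 and -1.98 (SE 0.25) for MAPK4 on the log2 scale. In ZNF711 it was -0.26 (SE 0.17), 0.78 (SE 0.20) and -0.59 (SE 0.25). For CADM1 and ADPRHL1 the sign in ZNF711 was opposite to that in each of the other 3 targets. MAPK4 stayed lower in AM in every target, with 1.51-fold in ZNF711 against 3.94-fold in TRAC.

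**Figure D3:**
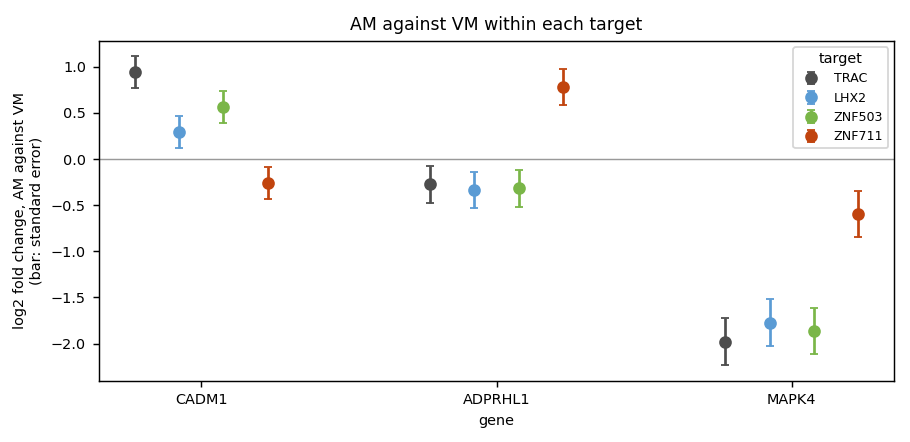
Log2 fold change of AM against VM (bars are the standard error) for each gene within each target. ZNF711 is the outlying point for each gene, at -0.26 for CADM1, 0.78 for ADPRHL1 and -0.59 for MAPK4; TRAC and ZNF711 points describe the libraries that chose the genes.

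The level of cardiomyocyte genes is given beside the 3 genes. Summed over 20 of them, AM TRAC ran from 23300.1 to 28664.5 CPM (median 24141.6) and AM ZNF711 from 27328.7 to 37464.2 CPM (median 33672.5). In VM, TRAC ran from 19146.0 to 47042.0 CPM (median 44571.6), with replicate 3 the lowest, and ZNF711 from 14607.0 to 20522.9 CPM (median 19506.2). The groups overlapped in both conditions, and without replicate 3 in neither. In AM 19 of 20 had a log2 fold change above 0 after ZNF711 targeting (median 0.49, against 0.01 over all genes tested), and in VM 0 of 20 (median -0.76, against -0.01). Of the 20, 0 passed edgeR's test in AM and 0 in VM, with 6 and 14 at an unadjusted p below 0.05, where all genes gave 3.48% and 9.4%. DESeq2 called 0 in each, and the replicate block gave 0 and 1. Without replicate 3, 4 of 20 passed in AM and 8 of 20 in VM, with medians of 0.75 and -0.95, beside the 41 and 898 of all genes. In bulk RNA, fewer cells of a type and less RNA per cell cannot be told apart.

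Set against this sum, ADPRHL1 and MAPK4 kept no opposite direction. TTN and MYH6 weigh most in the sum. Their medians over the 24 libraries were 10240.0 and 7594.8 CPM, beside a median of 26781.4 CPM for the sum. Per 1000 CPM of cardiomyocyte genes, ADPRHL1 was at 4.99 ± 0.41 CPM in AM TRAC and 5.77 ± 0.445 in AM ZNF711 (SD, n = 3), and at 4.77 ± 2.38 in VM TRAC and 6.24 ± 1.97 in VM ZNF711. MAPK4 was at 0.611 ± 0.118 and 0.846 ± 0.0574 in AM, and at 1.79 ± 0.741 and 2.33 ± 0.544 in VM. Both means were higher in ZNF711 in both conditions, the VM groups overlapped for both genes, and in AM the groups overlapped for ADPRHL1 and not for MAPK4. CADM1 kept its opposite differences on this scale, at 5.53 ± 1.12 and 2.96 ± 0.83 in AM and at 2.37 ± 1.5 and 6.35 ± 1.14 in VM, TRAC first. Without replicate 3 the means had the same order: ADPRHL1 was at 5.20 and 5.58 in AM and 3.48 and 5.25 in VM, MAPK4 at 0.679 and 0.819 and at 1.50 and 2.19, and CADM1 at 6.14 and 2.5 and at 1.50 and 5.75. In ZNF711 the median sum was higher in AM and lower in VM than in TRAC, the reverse of CADM1. Division by it therefore widened the CADM1 differences and could not reverse them. In VM the sum was lower by a larger factor than ADPRHL1 or MAPK4, so their ratios rose. These ratios come from the libraries that chose the genes and carry no test. Whether cardiomyocyte content has a part in the differences of the 3 genes was not tested.

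**Figure D4:**
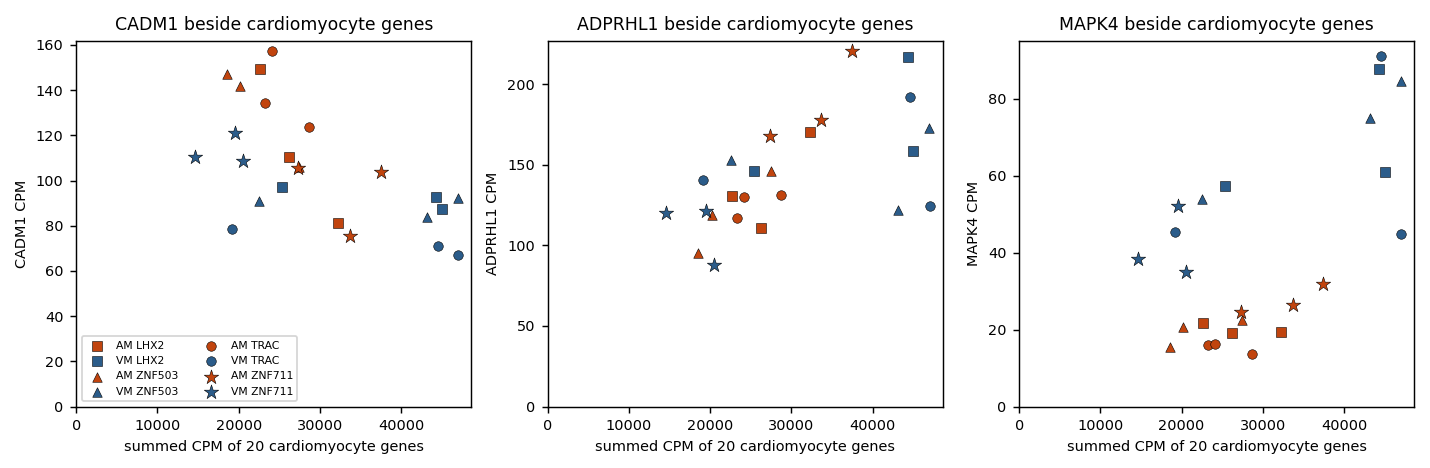
CPM of each gene against the summed CPM of 20 cardiomyocyte genes, 1 point per library, coloured by condition and shaped by target. The VM ZNF711 libraries sit at 14607.0 to 20522.9 summed CPM, apart from most VM libraries of the other targets.

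Genes of other cell types were summed in the same way. Over 12 fibroblast genes, AM TRAC ran from 11662.9 to 13291.2 CPM and AM ZNF711 from 9091.1 to 10723.2 CPM, without overlap. VM TRAC ran from 7327.5 to 17237.6 CPM and VM ZNF711 from 12973.0 to 16057.8 CPM, which overlapped because VM TRAC replicate 3 was high; without replicate 3 neither pair of groups overlapped. FN1 weighs most in this sum, with a median of 6134.1 CPM over the 24 libraries beside 11077.5 CPM for the sum. Of the 12, 4 were above 0 in AM (median log2 fold change -0.17) and 11 in VM (median 0.63). By edgeR 0 passed in either, and DESeq2 called 0 in each. At an unadjusted p below 0.05 there were 2 and 4, where all genes gave 3.48% and 9.4%. Without replicate 3, 0 of 12 passed in AM and 9 of 12 in VM (medians -0.23 and 1.15), beside 41 and 898 of all genes. All 12 cell cycle genes were above 0 in VM (median 0.69), where 0 passed by edgeR, 9 had an unadjusted p below 0.05 and DESeq2 called 2. Of 10 epicardial genes tested, 3 were above 0 in AM (median -0.37) and 9 in VM (median 0.63), and all 10 endoderm genes were above 0 in both conditions (medians 0.99 and 0.79). Of either list 0 passed by edgeR or DESeq2 in either condition, with 1 epicardial and 0 endoderm genes at an unadjusted p below 0.05 in each. With the replicate block, 5 of 12 cell cycle, 2 of 12 fibroblast, 2 of 10 endoderm and 0 epicardial genes passed in VM, and 0 of each list in AM. Without replicate 3, 5 of 12 cell cycle, 7 of 10 endoderm and 1 of 10 epicardial genes passed in VM. In AM 3 of 10 endoderm genes did, 0 of the other 2 lists, and the epicardial median turned to 0.09. Of 10 atrial genes, 4 were above 0 in AM (median -0.04) and 9 in VM (0.56), and of 10 ventricular genes 6 (0.165) and 3 (-0.31). By edgeR 0 of either list passed. Without replicate 3, 1 atrial gene passed in AM and 5 in VM, and 1 and 3 ventricular genes. Of 4 neural genes tested, 0 passed in AM and 1 in VM. With all libraries, 0 smooth muscle, endothelial or pluripotency genes passed by edgeR in either condition. The part of all these lists in the differences of the 3 genes was not tested.

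With all libraries, none of the 3 genes' relatives passed edgeR's test for ZNF711. For CADM1 the list held 19 genes: the other CADM and nectin proteins, the CADM1 ligand CRTAM, and intracellular partners. CRTAM had no count in any of the 24 libraries, and of the 18 tested, 0 passed in AM, in VM or for the difference. At an unadjusted p below 0.05 there were 1, 3 and 2, shares of which 3 of 18 in VM stands beside 9.4% of all genes, and DESeq2 called 0, 1 and 0. Their median log2 fold change was 0.16 in AM and 0.08 in VM. CADM3, an adhesion protein mostly of neurons, was at 0.77 (SE 0.48) in AM and 1.12 (SE 0.44, adjusted p = 0.409 by edgeR) in VM, so it did not share the CADM1 change of sign. EPB41L3, a band 4.1 protein that binds CADM1, was at 0.14 (SE 0.20) in AM and -0.79 (SE 0.20, adjusted p = 0.184) in VM. Without replicate 3 both passed in VM by edgeR, CADM3 at 1.68 (SE 0.46, adjusted p = 0.0389) and EPB41L3 at -1.01 (SE 0.14, adjusted p = 0.000253), and EPB41L3 passed for the difference (-1.25, SE 0.19, adjusted p = 0.00177).

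Of 7 genes for ADP-ribose hydrolases and related enzymes, 0 passed for ZNF711 in either condition or for the difference. At an unadjusted p below 0.05 there were 0, 0 and 1, and DESeq2 called 0 in each. Medians were -0.05 in AM and -0.11 in VM. ADPRH, the founding ADP-ribosylarginine hydrolase, was at -0.11 (SE 0.46) and -0.82 (SE 0.47). ENPP1, a phosphodiesterase that can act on ADP-ribose groups, was at -0.59 (SE 0.37) in AM and 0.67 (SE 0.37) in VM, the signs of CADM1 and not of ADPRHL1.

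Of 10 genes for atypical and related MAP kinases and their partners, 0 passed for ZNF711 in either condition or for the difference. At an unadjusted p below 0.05 there was 1 in each, and DESeq2 called 0 in each. Without replicate 3 edgeR called 0 of this list and 0 of the ADP-ribose hydrolases in each. MAPK6, the closest relative of MAPK4 (also called ERK3), was at -0.03 (SE 0.20) in AM and 0.34 (SE 0.20) in VM. Its partner kinase MAPKAPK5 was at -0.27 (SE 0.18) and 0.07 (SE 0.17). PAK3, a group I p21-activated kinase, was at -0.30 (SE 0.34) and 0.74 (SE 0.36), opposite in sign to MAPK4 but with an AM value smaller than its SE. The other 2 of this group, PAK1 and PAK2, were at 0.035 and -0.03 in AM and at 0.307 and 0.135 in VM.

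**Figure D5:**
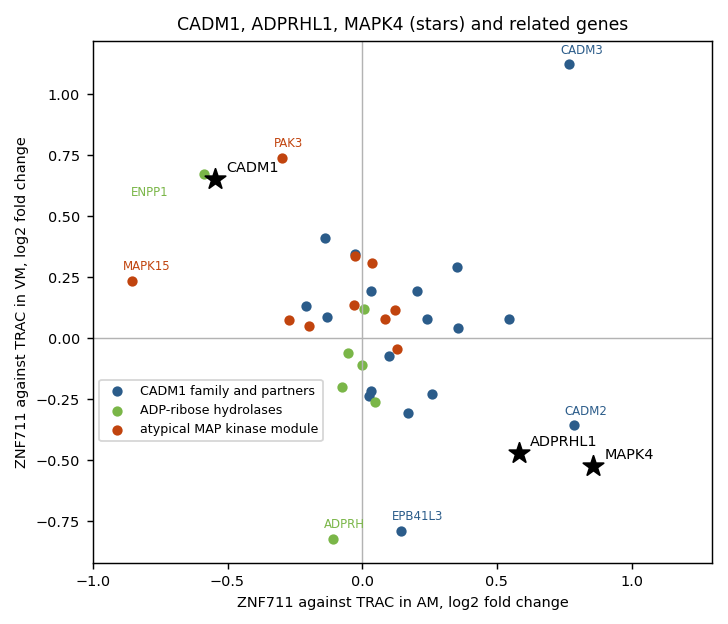
ZNF711 against TRAC in AM (horizontal) and in VM (vertical), as log2 fold change, for CADM1, ADPRHL1 and MAPK4 (stars) and 35 related genes (points, coloured by list). ADPRHL1 and MAPK4 lie at the lower right and CADM1 at the upper left, and with all libraries 0 of the 35 related genes passed edgeR's test in either condition (2 of them, CADM3 and EPB41L3, did in VM without replicate 3).

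Between conditions, where 8.56% of all genes passed in LHX2 and 8.86% in ZNF503, a few relatives passed as well. Of the 18 CADM1 relatives, 2 were higher in AM in LHX2: NECTIN4, a nectin of epithelia (log2 fold change 1.92, SE 0.27, adjusted p = 2.99e-05 by edgeR), and APBA1, an adaptor that forms a complex with CASK (2.25, SE 0.36, adjusted p = 0.000196). In ZNF503 3 were higher in AM, NECTIN1 at 0.99 (SE 0.19), NECTIN4 at 1.41 (SE 0.26) and APBA1 at 1.87 (SE 0.36), with adjusted p of 0.000716, 0.000623 and 0.00117 by edgeR. None of the 18 was called lower in AM, 8 and 9 of them had a log2 fold change above 0, and the medians were -0.03 and -0.01, near the 0.00 of all genes. With so few genes, these counts are not read as a result about the list. Of the MAPK4 list 1 passed, PAK3 in ZNF503 (1.27, SE 0.35, adjusted p = 0.0192), higher in AM where MAPK4 was lower. No ADP-ribose hydrolase passed in either, at 0 by an unadjusted p below 0.05 and 0 by DESeq2.

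The genes most like each member were taken by Pearson's r of log2 CPM over the 24 libraries, among 11419 genes. The libraries share conditions, controls and depth, so r is a description. CADM1 was most like FAT3 (r = 0.88), an atypical cadherin, FOXC1 (0.88), a forkhead factor of mesenchyme, TENM3 (0.88), a teneurin adhesion protein, DDR2 (0.87), a collagen receptor that is also on the fibroblast list, and C14orf132 (0.86). It was most opposite to CKMT2 (-0.85), the mitochondrial creatine kinase of striated muscle, HSPA12A (-0.84) and ANKRD63 (-0.83). Taken as deviations from the mean of the condition, 4 of its 5 most similar genes stayed among the top 5.

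ADPRHL1 was most like SLC25A4 (r = 0.92), the mitochondrial ADP/ATP carrier of muscle and heart, MDH1 (0.86), a malate dehydrogenase, ATP5F1B (0.85), an ATP synthase subunit, KCNQ1 (0.85), a cardiac potassium channel, and VSTM2L (0.84). It was most opposite to THBS3 (-0.82), FBN1 (-0.81), the matrix protein fibrillin, and TRIO (-0.78). MAPK4 was most like ENSG00000289493 (r = 0.98), RBM38 (0.97), an RNA-binding protein, TSC22D1 (0.96), RCSD1 (0.95) and TBX20 (0.95), a cardiac T-box factor, and most opposite to LIMCH1 (-0.95), SHOX2 (-0.93), a homeobox factor of the sinus node, and FREM2 (-0.93). For ADPRHL1 and for MAPK4, 2 of the 5 stayed among the top 5 within conditions, and for MAPK4 r with those 5 genes fell to between 0.77 and 0.91.

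Among themselves, ADPRHL1 and MAPK4 had r = 0.41 over all 24 libraries and 0.79 as deviations from the mean of the condition. CADM1 was opposite to both, at -0.48 with ADPRHL1 and -0.64 with MAPK4, and -0.55 and -0.42 within conditions. The 24 libraries include those of TRAC and ZNF711, where the genes were chosen for opposite differences. The signs of these correlations follow in part from that choice, so nothing further is read from them.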

How the data were processed

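RNA was sequenced from 24 libraries, 8 groups of 3. The authors deposited 1 table of raw counts per Ensembl gene, aligned with STAR to GRCh38 per the submitters' processing notes; the STAR version, gene annotation, counter and strand setting are not given in the sources used here. The labels name both polyA RNA and a ribosomal depletion kit. Symbols matched 62639 of 62757 identifiers (99.99% of counts); lengths and positions are from GENCODE 29, which need not be the release counted.

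edgeR 4.0.16 (R 4.3.3) was fitted to the deposited counts with TMM scaling (factors 0.906 to 1.08), filterByExpr (17724 genes), 1 mean per group over all 24 libraries and robust quasi-likelihood tests, with Benjamini-Hochberg adjustment over all genes in each of 13 comparisons. Genes with an adjusted p below 0.05 were called. Standard errors are the log2 fold change divided by the root of its F statistic. On simulated data for AM against VM in LHX2 (17724 genes), 29 of 100 genes changed by 1 on the log2 scale and 60 of 100 changed by 2 were recovered, with 4 false calls.

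Libraries with the same replicate number deviated together (all 30 pairs above 0.1, from 0.125 to 0.786 over 11423 genes). The numbers were therefore taken to pair libraries, from the data and not the labels. The main fit left this pairing out, so its standard errors and adjusted p ignore it. The pairing entered only as a replicate block among the alternatives and in the ratios of same-number libraries. No 2 libraries of a group agreed within sampling noise (chi-square per degree of freedom 4.33 to 44.2).

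The 3 genes and the gene lists were chosen with earlier results of these data known. Besides the 3 genes and the targeted genes, the text names genes of those lists and, for each of the 3, the 5 most similar and 3 most opposite genes by correlation (mean log2 CPM at least 3, prior count 2). Alternatives were RLE scaling, no scaling beyond library size, other filters, DESeq2 1.42.0, fits of only the groups compared, replicate blocks, and leaving out each library or replicate number.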

Additional observations from a re-analysis of the deposited data

Results flagged for a closer look

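The ZNF711 effect differed in direction between AM and VM for each of the 3 genes. The difference was not tested, because the genes were chosen for it. For CADM1 the difference, VM minus AM, was 1.20 on the log2 scale: the ratio of ZNF711 to the TRAC library of the same number was 0.563, 0.659 and 0.854 in AM and 1.62, 1.71 and 1.41 in VM. For ADPRHL1 it was -1.05, with ratios of 1.52, 1.69 and 1.28 in AM and 0.707, 0.63 and 0.854 in VM. For MAPK4 it was -1.38, with ratios of 1.65, 1.97 and 1.81 in AM and 0.782, 0.571 and 0.846 in VM. In each gene all 3 pairs went one way in AM and the other way in VM. The genes were chosen for this pattern, and groups that do not overlap give it under any pairing, so it adds no support. For MAPK4 in VM, where the groups overlapped, the log2 fold change was -0.10 without VM TRAC replicate 2.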

How the results depend on the processing

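Of 1365 alternative values for the 3 genes, 1326 counted as unchanged, by a rule that differed between comparisons. In the tested comparisons it asked for the same direction and side of the threshold, whatever the size. In the comparisons given as a description it asked for the same direction and a size within the spread between libraries. The call of CADM1 for AM against VM in ZNF503 was 0.57 on the log2 scale with an adjusted p of 0.0549 by edgeR when only the groups compared were fitted, and 0.43 to 0.72 when libraries were left out. Leaving out libraries gave -0.72 to -0.10 for MAPK4 with ZNF711 in VM, 1.04 to 1.46 for CADM1 and -1.57 to -0.96 for MAPK4 for the ZNF711 difference between conditions, and -2.19 to -1.56 for MAPK4 for AM against VM in TRAC. Small values that passed no test changed sign when libraries were left out. With LHX2 these were ADPRHL1 in AM (-0.065 to 0.256) and in VM (-0.00034 to 0.39), MAPK4 in VM (-0.026 to 0.61), and the differences between conditions of ADPRHL1 (-0.13 to 0.27) and MAPK4 (-0.42 to 0.21). With ZNF503 they were CADM1 in AM (-0.193 to 0.061), ADPRHL1 in AM (-0.236 to 0.066) and in VM (-0.16 to 0.17), and the differences of ADPRHL1 (-0.10 to 0.24) and MAPK4 (-0.50 to 0.30). The cause was not tested.

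The replicate block changed no call of the 3 genes: MAPK4 for AM against VM was -1.75 in LHX2 (adjusted p = 1.95e-08 by edgeR) and -1.85 in ZNF503 (3.32e-09), and CADM1 in ZNF503 was 0.57 (0.00635). Over all genes, the block raised the calls for AM against VM from 1517 to 2781 in LHX2, from 1571 to 2642 in ZNF503, from 2004 to 3430 in TRAC and from 2344 to 4150 in ZNF711. Calls for ZNF711 went from 0 to 7 in AM, from 3 to 402 in VM and from 1 to 5 for the difference, and calls for LHX2 in AM from 0 to 201, in VM to 1, and for ZNF503 in AM to 1. With the block set within each condition the ZNF711 calls were 94, 1480 and 450, those for LHX2 552, 8 and 9, and those for ZNF503 in AM 10. With no filter they were 99, 495 and 209 for ZNF711, 97, 136 and 40 for LHX2 and 16, 4 and 3 for ZNF503. Leaving out libraries gave 0 to 41, 1 to 898 and 0 to 295 for ZNF711, most without replicate 3 of every group. It gave 0 to 3 for LHX2 in AM, and for AM against VM 447 to 1752 in LHX2, 534 to 1799 in ZNF503, 696 to 2201 in TRAC and 630 to 2767 in ZNF711. DESeq2 gave 76 for ZNF711 in VM and 10 for the difference, and a filter at 1 CPM gave 2 for the difference. Fits of only the groups compared gave 26 for ZNF711 in AM and 0 in VM, 168 for LHX2 in AM, 3 for ZNF503 in AM and 1023 for AM against VM in TRAC. The correlations of MAPK4 with its 8 named genes were weaker within conditions. MAPK4 had 60 to 159 counts in the AM libraries. In the simulation, over genes of all levels, 29 of 100 genes changed by 1 on the log2 scale were recovered, so smaller changes can be missed. The simulation did not vary depth, so the part of depth in this was not tested.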
